A study of Mus musculus with 6 samples.

Results

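Symbols of the form Zfp followed by a number name mouse genes for zinc finger proteins. Among 53090 gene rows in RNA-seq of neutrophils, 374 rows carried such a symbol other than Zfp36, for 373 different symbols. A total of 203 of them had at least 20 expected counts in at least 3 of the 6 libraries and are described here. Zfp36, an RNA-decay factor of another protein family, was left out, and for Zfp935, which had 2 rows, the row with more counts was kept. Liver neutrophils (3 libraries) and blood neutrophils (3 libraries) came from mice kept for 1 week on a diet with DDC, an agent that damages bile ducts. All mice had the diet, so no library shows an untreated mouse, and strain, age and sex of the mice are not given in the labels. Both groups were selected with magnetic beads against Ly6G, a surface protein of mouse neutrophils, after a Percoll gradient for liver and after lysis of red cells for blood. Tissue and preparation thus differ together and cannot be told apart. The labels do not tie a liver library to a blood library of the same mouse, and p-values measure only the spread between these samples.

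Most of these proteins carry tandem C2H2 fingers, short loops held by a zinc ion that together read a stretch of DNA or, in some members, bind RNA. A large subgroup also carries a KRAB box, through which it recruits Trim28 (KAP1), the histone methyltransferase Setdb1 and heterochromatin proteins, a route best known for silencing retrotransposons and imprinted loci. KRAB genes arose by repeated duplication and lie in clusters along the chromosomes. Other members have individual roles in transcription, ribosome assembly, splicing or the mitotic spindle.

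The gene with the strongest call among the 203 was Zfp217, whose protein is found with the corepressors CtBP, CoREST and the histone demethylase LSD1. The RefSeq table of the GRCm38.p6 build gives 2 start windows for it. The 250 bases before the start of the window that holds a searched motif lie at chr2:170142676-170142925 and are shown on the minus strand, with the letters CCGGAAG, a core bound by ETS-family factors, in capitals.
Zfp217 upstream window: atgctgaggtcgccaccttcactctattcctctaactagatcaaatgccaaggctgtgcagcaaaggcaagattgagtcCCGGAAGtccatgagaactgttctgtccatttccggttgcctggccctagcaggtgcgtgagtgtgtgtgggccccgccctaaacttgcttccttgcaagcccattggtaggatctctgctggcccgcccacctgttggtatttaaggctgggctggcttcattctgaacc

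Windows of 300 bases (250 before and 50 after a start) were found for 168 of the 203 genes, 203 windows in all, and were searched on both strands for 4 motifs of which none contains another. CCGGAAG stood in 21.2% of the windows of these genes, against 11.6% of all protein-coding windows and 8.86% of all 32851 windows. Its share was 28.7% in windows of genes with a KRAB match and 14.7% in the others. The letters ACTACAA, any base and TCC, part of the site that ZNF143, the human counterpart of Zfp143, is known to bind, stood in 3.94% of the windows, against 1.46% of protein-coding and 1.01% of all windows. GGGA, any base and TTTCC, a form of the NF-kB site, stood in 2 windows (0.985%), against 0.423% of protein-coding and 0.411% of all windows. TGA, any base and TCA, the AP-1 letters, stood in 3.94%, against 6.99% of protein-coding and 7.81% of all windows. These matches describe letters and not bound sites. Because Zfp143 itself was lower in liver, a 35-base stretch around this match, in capitals, is shown for 4 of the 8 genes that hold it, each read on the strand given.
Zfp1, chr8:111643402-111643436, minus strand: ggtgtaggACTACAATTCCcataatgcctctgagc
Zfp180, chr7:24081859-24081893, minus strand: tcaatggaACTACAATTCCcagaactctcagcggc
Zfp691, chr4:119174348-119174382, minus strand: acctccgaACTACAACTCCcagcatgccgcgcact
Zfp692, chr11:58307013-58307047, plus strand: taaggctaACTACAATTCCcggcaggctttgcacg

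Of the 8 genes with these letters (Zfp1, Zfp58, Zfp180, Zfp219, Zfp358, Zfp691, Zfp692 and Zfp933), 1 was called lower in liver and 0 higher. Of all tested genes, 14.2% were called lower and 17.4% higher. A link between Zfp143 and these genes was not tested. The called gene was Zfp180, with 6.92, 7.47 and 10.7 CPM (counts scaled to library size, the usual depth-scaled unit) in liver libraries 1 to 3, against 13.8, 16.2 and 19.3 CPM in blood libraries 1 to 3. Its log2 fold change, liver minus blood here and throughout, was -0.97 (SE 0.29, adjusted p = 0.032, edgeR), and it was not called when blood 2, blood 3, liver 1 or liver 2 was left out (adjusted p 0.0609 to 0.101).

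Total counts ran from 13054673 to 17579669 per library. All 12 neutrophil markers on the list were detected, and 8 of them were lower in liver, with a summed level of 7923 to 13600 CPM in liver and 21317 to 32619 CPM in blood. Of other cell types, 3 of 5 monocyte, 4 of 8 macrophage and all 3 hepatocyte markers tested were called higher in liver. Their summed levels were 953 to 1405 CPM in liver against 349 to 444 CPM in blood for monocytes, 164 to 433 CPM in liver against 41.0 to 159 CPM in blood for macrophages, and 14.1 to 217 CPM in liver against 0.438 to 3.52 CPM in blood for hepatocytes, whose highest value was in liver 3. Platelet markers (3 of 6 tested lower) summed to 39.0 to 52.7 CPM in liver and 56.2 to 350 CPM in blood. Erythroid markers (0 of 6 called) summed to 84.8 to 1529 CPM in liver and 206 to 16996 CPM in blood, highest in blood 1. B cell markers (2 of 8 lower) summed to 73.2 to 86.0 CPM in liver and 58.1 to 281 CPM in blood. T and NK cell markers (1 of 9 tested lower) summed to 10.4 to 28.3 CPM in liver and 9.53 to 17.3 CPM in blood. Liver endothelium markers (3 of 4 tested higher) summed to 19.2 to 32.9 CPM in liver and 14.8 to 18.1 CPM in blood. Cholangiocyte markers (1 of 1 tested lower) summed to 3.09 to 5.22 CPM in liver and 8.5 to 12.8 CPM in blood. The cholangiocyte genes Krt19 and Sox9 were at 0 in blood. Sums cover all listed markers, while called shares are of those tested. Of all tested genes, 17.4% were called higher and 14.2% lower. The part of these other cells in the results below was not tested. In bulk samples such as these, fewer cells of a type and less RNA per cell cannot be told apart.

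Zinc finger genes were on the whole lower in liver neutrophils. Their summed level was 4331, 4829 and 4371 CPM in the 3 liver libraries, against 5923, 6506 and 6626 CPM in the 3 blood libraries. Every liver library was below every blood library. Of the 203 genes, all of which were tested, 54 (26.6%) were called lower in liver, where 14.2% of all 13458 tested genes were. A total of 24 (11.8%) were called higher, where 17.4% of all tested genes were, and 125 were not called. In either direction 31.6% of all tested genes were called. Liver libraries all lay below blood libraries for 77 of the 203 genes and all above for 30, with 22.7% and 25.8% of all tested genes as the background. The median log2 fold change of the 203 genes was -0.33, with quartiles of -0.92 and 0.35, beside 0.04 over all tested genes.

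Calls at a change of at least 2-fold numbered 33 lower and 21 higher among the 203 genes. Among all 13458 tested genes, 1184 (8.80%) were lower and 2103 (15.6%) higher by the same measure. The counts of calls moved with the libraries used. Without any 1 library, 30 to 45 genes were called lower, with 30 without liver 1 and 31 without blood 3, and 13 to 15 were called higher. Without liver 3 and blood 1, which had the most hepatocyte and erythroid RNA, 35 were called lower and 11 higher, and the median was -0.49. Of the individual calls, 27 of the 54 lower and 10 of the 24 higher were kept without each of the 6 libraries in turn.

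**Figure D1:**
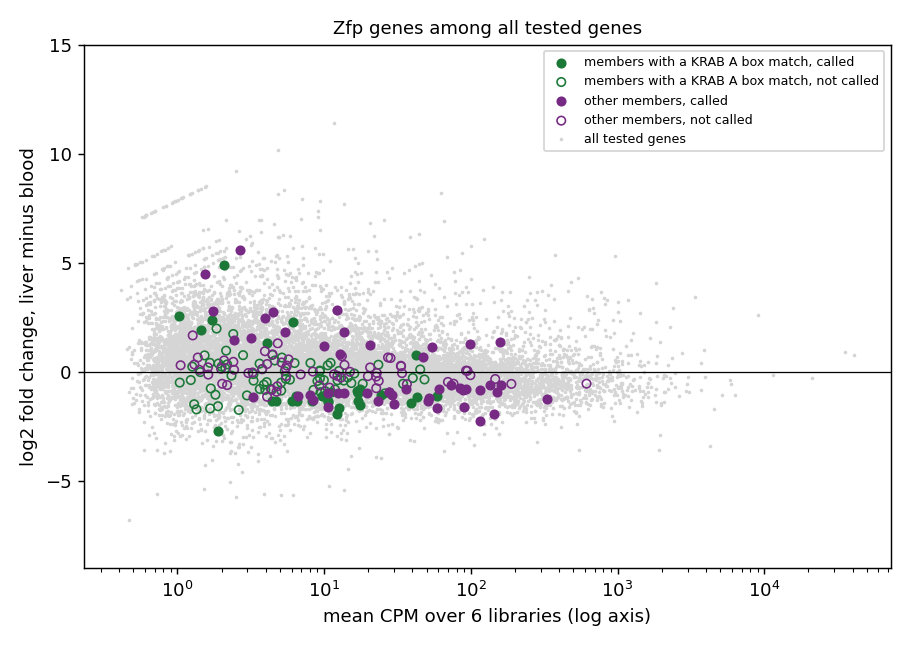
Each tested gene is drawn by its mean level over the 6 libraries (CPM, log axis) and its log2 fold change, liver minus blood, with the zinc finger genes in colour and filled where called. Called genes at high levels lie mostly below 0, and the 3 largest rises (Zfp651, Zfp667 and Zfp366) all have a mean under 5 CPM.

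The balance of rises and falls shifted with the level of the gene. Among the 57 zinc finger genes with a mean of at least 20 CPM over the 6 libraries, 26 (45.6%) were lower in liver and 6 (10.5%) higher, beside 26.7% and 14% of all tested genes at that level. Between 5 and 20 CPM, 24 of 72 (33.3%) were lower and 6 (8.33%) higher, beside 11.5% and 19.8%. Under 5 CPM, 4 of 74 (5.41%) were lower and 12 (16.2%) higher, beside 3.49% and 19.0%. Of these 12 rises, 7 were in genes that met the count rule only through the liver libraries and had to be high there, so the share of rises at this level is partly fixed by the rule. The median log2 fold change was -0.56 at the highest level, -0.39 in the middle and 0.15 at the lowest, beside -0.25, 0.06 and 0.54 for all tested genes at those levels. In fits that left out 1 library each, 19 to 25 of the 57 most abundant genes were called lower.

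**Figure D2:**
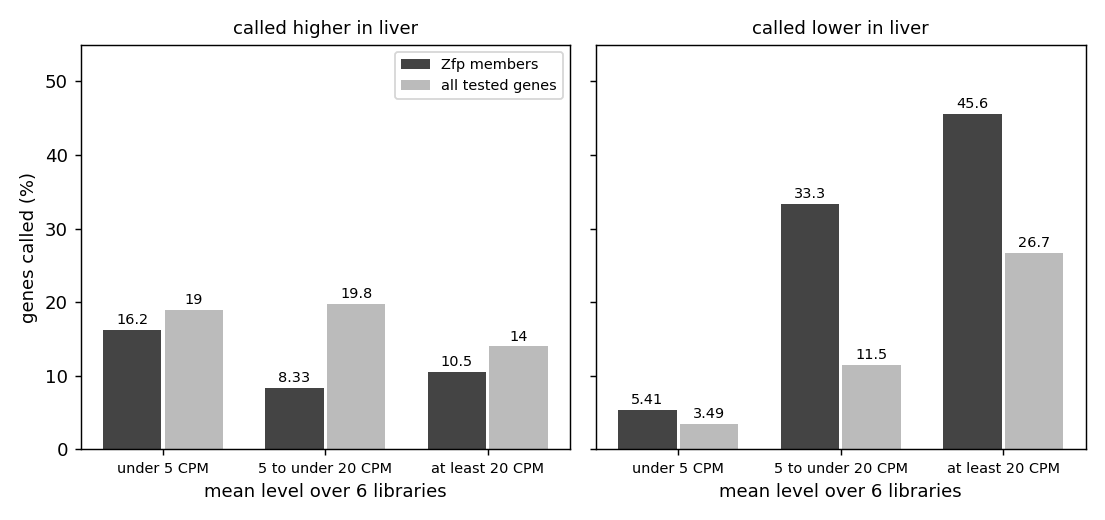
Bars give the percentage of genes called higher (left) and lower (right) in liver, for the zinc finger genes (dark) and all tested genes (light) in 3 ranges of mean CPM. In the upper 2 ranges, 33.3% and 45.6% of zinc finger genes were called lower, against 11.5% and 26.7% of all tested genes.

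The largest falls included genes at well measured levels. Zfp217 had 36.6, 44.3 and 40.1 CPM in liver libraries 1 to 3, against 173, 225 and 176 CPM in blood libraries 1 to 3. The groups were far apart, with a 4.74-fold lower level in liver, a log2 fold change of -2.24 (SE 0.19, adjusted p = 0.000146, edgeR) and values of -2.36 to -2.14 when 1 library was left out. The gene lies at chr2:170108643-170148103 on the minus strand and shares no exon with another annotated gene. The upstream window shown above precedes a RefSeq start that lies inside this span, so it is not sequence outside the gene. Zfp740 had 45.3, 53.7 and 82.9 CPM in liver, against 225, 203 and 259 CPM in blood (log2 fold change -1.92, SE 0.25, adjusted p = 0.000854, edgeR). Its liver 3 value was the highest of the liver group and still under every blood library, and its exons overlap those of Csad on the other strand.

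Zfp831 and Zfp276 fell at similar levels. Zfp831 had 34.7, 57.8 and 38.5 CPM in liver and 122, 155 and 128 CPM in blood (-1.63, SE 0.23). Zfp276 had 22.1, 36.3 and 26.1 CPM in liver and 86.4, 95.9 and 85.8 CPM in blood (-1.67, SE 0.22), and overlaps Fanca and Vps9d1 on the other strand. For both, liver 2 was the highest liver library and the groups did not overlap. Zfp574 had 13.9, 20.4 and 13.3 CPM in liver, against 37.5, 49.2 and 45.6 CPM in blood (-1.47, SE 0.24).

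The other large falls were Zfp825 (-2.73, SE 0.59), Zfp949 (-1.94, SE 0.33), Zfp87 (-1.68, SE 0.27), Zfp768 (-1.63, SE 0.29) and Zfp866 (-1.51, SE 0.35), of which all but Zfp768 have a KRAB match. Zfp825 was the sparsest, with 23 counts in all liver libraries and 127 in all blood libraries, and met the count rule only through blood. Zfp949 had 7.11, 3.43 and 4.70 CPM in liver and 17.6, 20.9 and 20.2 CPM in blood. Zfp866 spread most, with 8.29, 6.38 and 12.9 CPM in liver and 22, 19.6 and 37.0 CPM in blood, replicate 3 being the highest in each group. Its exons overlap those of Gm20422 on the same strand and of Atp13a1 on the other. All 10 of these calls were kept without any 1 library and without liver 3 and blood 1 together.

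The 3 largest rises were in genes that were near 0 in blood. Of the 10 largest, Zfp651, Zfp667, Zfp366, Zfp593, Zfp90 and Zfp945 met the count rule only through the liver libraries. In these genes a high liver and a low blood level was thus partly fixed by the rule. Zfp651 had 8.36, 3.97 and 3.41 CPM in liver libraries 1 to 3, against 0.0719, 0.263 and 0 CPM in blood libraries 1 to 3, from 247 counts in the liver group and 4 in the blood group. Its log2 fold change was 5.56 (SE 0.86, adjusted p = 0.00182, edgeR), and it lies at chr9:121759330-121771742, where it overlaps E530011L22Rik on the other strand. Zfp667, known as Mipu1 from rat heart, had 4.57, 2.59 and 4.89 CPM in liver, against 0.0719, 0.263 and 0.0671 CPM in blood (4.89, SE 0.72), from 189 counts in liver and 5 in blood. Every liver library of both genes was many times above every blood library, but the size of each change rests on the few blood counts.

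Zfp366, known as DC-SCRIPT and as a gene of dendritic cells, had 3.20, 1.32 and 4.31 CPM in liver, against 0.359, 0 and 0 CPM in blood. All 5 of its blood counts were in blood 1. The log2 fold change was 4.49 (SE 1.08, adjusted p = 0.0127, edgeR), and 3.86 to 8.43 when 1 library was left out, the upper value being a fit to no blood counts. In the same libraries, 3 of 5 monocyte and 4 of 8 macrophage markers tested were called higher in liver, as given above. No list of dendritic cell markers was used, and whether other cells carry the Zfp366 counts was not tested.

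Zfp503, a corepressor of the NET family, rose at a higher level. It had 28.3, 26.7 and 9.84 CPM in liver, against 1.65, 4.38 and 3.09 CPM in blood (2.83, SE 0.49, adjusted p = 0.00313, edgeR). Liver 3 was the lowest liver library and still above every blood library. Zfp64, which activates the MLL promoter in human leukaemia, had 8.81, 5.48 and 9.13 CPM in liver and 0.862, 2.02 and 0.604 CPM in blood (2.76, SE 0.52). Zfp629 had 8.09, 3.97 and 8.23 CPM in liver and 0.575, 1.05 and 1.95 CPM in blood (2.49, SE 0.54), and its call was lost without liver 3 and blood 1 together, where its log2 fold change was 1.97.

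The other 4 of the 10 largest rises were less secure. Zfp593, whose yeast relative Bud20 serves in export of the large ribosomal subunit, had 5.81, 1.20 and 2.19 CPM in liver and 0.575, 0.526 and 0.201 CPM in blood (2.81, SE 0.77, adjusted p = 0.021, edgeR). Leaving out liver 1, blood 2 or blood 3 ended the call (adjusted p 0.0527 to 0.115), as did limma-voom and leaving out liver 3 and blood 1 together. Zfp90, which binds the neuronal repressor REST, had 1.96, 1.93 and 1.42 CPM in liver and 0.216, 0.613 and 0.0671 CPM in blood (2.58, SE 0.80), and its call was lost without blood 1, blood 3 or any 1 liver library (adjusted p 0.0650 to 0.113) and without liver 3 and blood 1 together. Zfp945, a gene with a KRAB match, had 2.35, 2.35 and 3.99 CPM in liver and 1.15, 0.438 and 0.0671 CPM in blood (2.38, SE 0.80), and was lost without blood 2, blood 3 or any 1 liver library (adjusted p 0.0775 to 0.140), without liver 3 and blood 1 together and in the edgeR fit without its robust option. Zfp991 had 8.81, 10.3 and 11.5 CPM in liver and 2.59, 3.33 and 0.403 CPM in blood (2.29, SE 0.60), and was lost without liver 3 (adjusted p = 0.0529) and without liver 3 and blood 1.

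**Figure D3:**
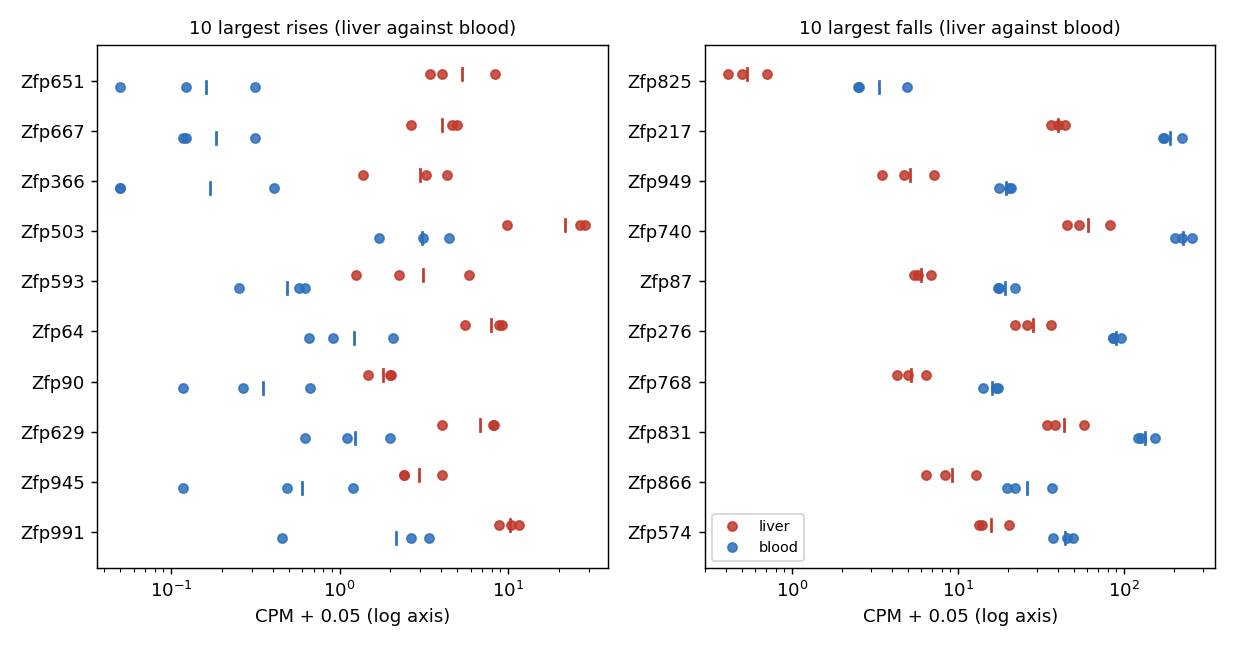
Points are single libraries (liver in red, blood in blue) and short bars the group means, as CPM plus 0.05 on a log axis, for the 10 largest rises (left) and the 10 largest falls (right) among called genes with separate groups. Blood values of Zfp651, Zfp667 and Zfp366 lie at or near the left edge, while Zfp217, Zfp740 and Zfp831 are above 100 CPM in every blood library.

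The most abundant zinc finger genes included some that were lower in liver, a single one that was higher and some that were not called. Zfp106, an RNA-binding protein needed in mouse motor neurons and muscle, had the highest CPM, with 507, 591 and 405 CPM in liver, against 657, 840 and 687 CPM in blood. The groups did not overlap, but the difference was not called (-0.54, SE 0.22, adjusted p = 0.0868, edgeR). Zfp652, a repressor that works with CBFA2T3, had 195, 198 and 193 CPM in liver, against 459, 381 and 564 CPM in blood (-1.26, SE 0.20, adjusted p = 0.00205, edgeR). Its liver libraries agreed closely while its blood libraries spread. Its exons overlap those of Phospho1 on the same strand and of Abi3 and Zfp652os on the other. Zfp638, an RNA-binding protein also known as NP220 that silences unintegrated retroviral DNA in human cells, had 87.5, 104 and 121 CPM in liver and 215, 180 and 194 CPM in blood (-0.92, SE 0.19).

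Zfp263 went the other way. It had 227, 288 and 175 CPM in liver, against 69.0, 112 and 82.2 CPM in blood, so that every liver library was above every blood library (1.39, SE 0.25, adjusted p = 0.00347, edgeR). Zfp710 had 103, 142 and 134 CPM in liver and 178, 182 and 219 CPM in blood (-0.61, SE 0.19), a call that was lost without liver 1, liver 3 or any 1 blood library (adjusted p 0.0517 to 0.124) and without liver 3 and blood 1. Zfp608, which represses the Rag genes in mouse thymocytes, had 117, 198 and 145 CPM in liver and 194, 289 and 190 CPM in blood, and Zfp292 had 93.2, 166 and 131 CPM in liver and 109, 246 and 135 CPM in blood. The groups overlapped for both, and neither was called. Scaled by the summed exon length, the mean over the 6 libraries was 58.9 CPM per kb for Zfp106, 35.1 for Zfp263, 28.5 for Zfp740 and 23.0 for Zfp710. On that scale Zfp263 had 50.9 ± 12.4 CPM per kb in liver (SD, n = 3) and Zfp106 48.0 ± 8.93, a difference within their spread, against 19.4 ± 4.91 for Zfp263 and 69.8 ± 9.39 for Zfp106 in blood.

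**Figure D4:**
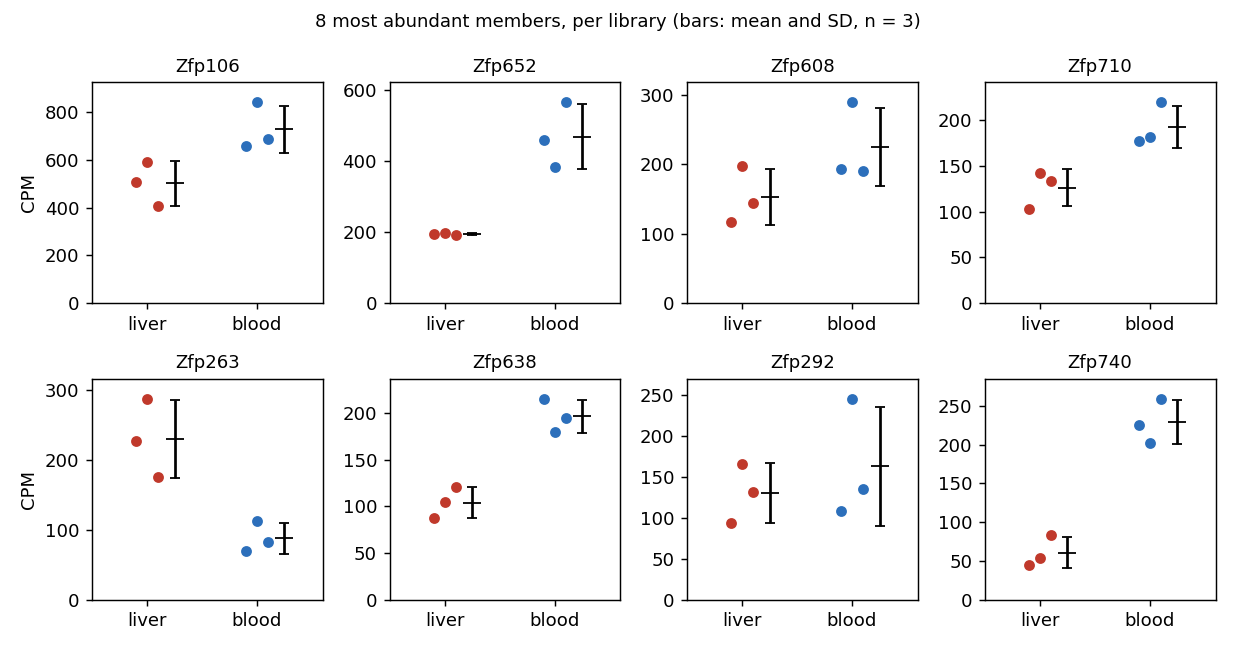
Each panel shows the CPM in the 3 liver (red, left) and 3 blood (blue, right) libraries of 1 gene, drawn from replicate 1 to 3, with the mean and SD (n = 3) beside them and an axis that starts at 0. Zfp652, Zfp710, Zfp638 and Zfp740 were called lower in liver, Zfp263 was called higher, and Zfp106, Zfp608 and Zfp292 were not called.

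Zfp592 and Zfp687, which form the Z3 complex with the histone reader ZMYND8, fell by similar amounts. Zfp592 had 64.8, 64.5 and 74.4 CPM in liver, against 116, 113 and 120 CPM in blood (-0.78, SE 0.17, adjusted p = 0.00782, edgeR), and Zfp687 had 42.4, 41.6 and 49.6 CPM in liver, against 77.0, 76.7 and 78.4 CPM in blood (-0.80, SE 0.17, adjusted p = 0.00838). The blood libraries of both were tightly grouped and lay above all liver libraries. Zfp143, an activator that binds promoters, had 18.9, 19.0 and 18.7 CPM in liver, against 36.9, 38.6 and 42.4 CPM in blood (-1.06, SE 0.20, adjusted p = 0.00404, edgeR). Zfp335, which is needed for T cell maturation in mice, had 28.3, 30.7 and 36.1 CPM in liver, against 69.9, 80.3 and 66.3 CPM in blood (-1.18, SE 0.19). These 4 calls were kept without any 1 library. On the other strand, Zfp687 overlaps Pi4kb, Zfp143 overlaps AA474408, and Zfp335 overlaps Pcif1 and Zfp335os.

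Zfp148 (ZBP-89), a factor that binds GC-rich promoters, had 51.1, 60.8 and 61.8 CPM in liver and 82.3, 93.7 and 90.9 CPM in blood (-0.62, SE 0.17). Zfp746 (PARIS), a repressor of the gene for PGC-1alpha, had 20.6, 11.1 and 25.7 CPM in liver and 30.9, 36 and 42.4 CPM in blood (-0.93, SE 0.31). Both calls depended on single libraries: Zfp148 was lost without liver 1, blood 2 or blood 3 (adjusted p 0.0550 to 0.0835) or without liver 3 and blood 1 together, and Zfp746 without liver 1, liver 2 or any 1 blood library (adjusted p 0.0521 to 0.103). Zfp703, the other corepressor of the NET family, had 110, 77.6 and 38.4 CPM in liver and 41.3, 35.6 and 24.0 CPM in blood (1.16, SE 0.37, adjusted p = 0.041, edgeR). Its liver 3 value was below blood 1, and the call was lost by limma-voom and without liver 1, liver 2 or any 1 blood library (adjusted p 0.0597 to 0.145).

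A further 9 genes, picked for known roles in chromatin and transcription, were not called. Liver libraries all lay below blood libraries for Zfp110 and Zfp341, and the groups overlapped for the rest. The 9 genes are given with their CPM as mean ± SD of 3 libraries. They are Zfp281 (62.1 ± 26.3 in liver, 90.4 ± 20.2 in blood), Zfp384 (96.5 ± 21.8 in liver, 93.2 ± 1.27 in blood), Zfp410 (15.3 ± 1.99 in liver, 12.2 ± 1.97 in blood), Zfp110 (42.5 ± 2.83 in liver, 54.1 ± 6.60 in blood), Zfp318 (11.5 ± 5.31 in liver, 13.1 ± 8.14 in blood), Zfp341 (3.29 ± 0.858 in liver, 6.19 ± 1.92 in blood), Zfp445 (36.4 ± 11.8 in liver, 44.1 ± 15 in blood), Zfp568 (9.21 ± 1.57 in liver, 6.92 ± 0.697 in blood) and Zfp809 (11.7 ± 1.16 in liver, 15.5 ± 5.69 in blood). Zfp410 is known to activate the remodeller gene Chd4, whose own level was 463 ± 45.9 CPM in liver and 466 ± 16.4 CPM in blood and was not called. Zfp341 controls STAT3 expression in human immune cells, Zfp318 allows IgD expression in B cells, and Zfp445, Zfp568 and Zfp809 are KRAB proteins known for imprinted loci, the Igf2 locus and retroviral silencing in the mouse.

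Members that act on RNA, ribosomes, the spindle or protein stability moved in both directions. Zfp326, of the DBIRD complex that links splicing to transcription, had 29.9, 28.1 and 28.3 CPM in liver, against 13.1, 9.81 and 14.3 CPM in blood (1.21, SE 0.24, adjusted p = 0.00538, edgeR). Its liver libraries were all about alike and above all blood libraries. Zfp622, which takes part in maturation of the large ribosomal subunit, had 163, 179 and 78.2 CPM in liver and 47.0, 83.9 and 44.0 CPM in blood (1.27, SE 0.36, adjusted p = 0.027). Its liver 3 value was below blood 2, and its adjusted p was 0.0866 to 0.0896 when liver 1, liver 2, blood 1 or blood 3 was left out. Zfp207 (BuGZ), which loads Bub3 at kinetochores, had 58.3, 61.2 and 68.3 CPM in liver, against 112, 93.7 and 110 CPM in blood (-0.75, SE 0.18, adjusted p = 0.0107, edgeR). Not called were the sensor of stalled ribosomes Zfp598 (22.5 ± 5.06 CPM in liver and 23.2 ± 6.14 CPM in blood), the double-stranded RNA binder Zfp346 (3.17 ± 0.483 CPM in liver, 5.62 ± 1.45 CPM in blood), Zfp830 (20.2 ± 2.61 CPM in liver, 26.9 ± 3.42 CPM in blood) and the ubiquitin ligase Zfp91 (94.6 ± 10.7 CPM in liver, 90.9 ± 11.9 CPM in blood), which shares exons with Cntf.

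Zinc finger genes with a KRAB match and those without both had more falls than rises. Of all tested genes, 14.2% were called lower and 17.4% higher. Over all annotated coding sequences of each gene, 96 of the 203 genes had a strong match to a KRAB A box. Of these, 23 (24.0%) were lower in liver and 7 (7.29%) higher, with a median log2 fold change of -0.41. Of the 107 without a KRAB match, 31 (29.0%) were lower and 17 (15.9%) higher, with a median of -0.12. Among their rises, Zfp366, Zfp593 and Zfp651 met the count rule only through liver. KRAB genes here are those with a match, which misses divergent boxes, as in Zfp746, so the others can include such boxes. Summed levels were 721, 882 and 842 CPM in liver and 1056, 1108 and 1312 CPM in blood for KRAB genes, and 3610, 3947 and 3529 CPM in liver and 4868, 5398 and 5314 CPM in blood for the others. In both sets every liver library was below every blood library. Whether the 2 sets differ was not tested, and without liver 3 and blood 1 there were 13 lower and 1 higher among KRAB genes and 22 lower and 10 higher among the others. With any 1 library left out, KRAB genes had 13 to 21 lower and 1 to 4 higher, and the others 17 to 26 lower and 10 to 14 higher. A SCAN box, a dimerization domain, was matched in 9 genes, of which Zfp24 and Zfp397 were lower and Zfp263 higher.

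By a pattern search the proteins held 0 to 36 C2H2 fingers. Genes with 15 or more fingers had 10 of 37 (27.0%) lower and 2 (5.41%) higher, with a median log2 fold change of -0.66. With 10 to 14 fingers, 20 of 64 (31.2%) were lower and 8 (12.5%) higher (median -0.31). With 5 to 9 fingers 13 of 66 (19.7%) were lower and 6 (9.09%) higher (median 0.03), and with up to 4 fingers 11 of 36 (30.6%) were lower and 8 (22.2%) higher (median -0.44). The shares over all tested genes were 14.2% lower and 17.4% higher. The medians did not order by finger number.

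In clusters of neighbouring genes, some members were called and others were not. Of the 203 genes, 86 lay in 17 clusters of at least 3 with starts within 500 kb of each other, and 60 of these 86 had a KRAB match. In clusters, 27 (31.4%) were lower and 4 (4.65%) higher in liver (median -0.48), and outside clusters 27 of 117 (23.1%) were lower and 20 (17.1%) higher (median -0.15). Of all tested genes 14.2% were lower and 17.4% higher, so the share of rises outside clusters was close to that of all genes. Among the rises, Zfp667 and Zfp945 in clusters met the count rule only through liver, as did Zfp90, Zfp316, Zfp366, Zfp593 and Zfp651 outside them. Both shares of rises are thus partly fixed by the rule. Without any 1 library, 11 to 22 clustered genes were called lower, the lowest counts being 11 without liver 1 and 13 without blood 3, and without liver 3 and blood 1 there were 14.

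The clusters named here were picked after their values were seen, and the medians of the 17 clusters ran from -1.07 to 0.38. Those that start with Zfp113, Zfp709 and Zfp653 had 0 genes called. Of all tested genes, 14.2% were lower and 17.4% higher. The cluster at chr13:67038596-67729173 held 10 genes, all with a KRAB match, of which 4 were lower and 0 higher, with a median of -1.07. Zfp87 had 6.85, 5.42 and 5.66 CPM in liver, against 17.8, 17.5 and 22 CPM in blood, and Zfp953 had 7.18, 5.96 and 4.63 CPM in liver, against 14.5, 15.3 and 16 CPM in blood (-1.37, SE 0.29). Zfp595 had 2.74, 5.42 and 5.85 CPM in liver and 12.6, 12 and 10.8 CPM in blood (-1.34, SE 0.36), a call lost without liver 1 (adjusted p = 0.0517), and Zfp748 had 7.44, 5.78 and 5.34 CPM in liver and 12.5, 10.2 and 16.7 CPM in blood (-1.09, SE 0.32), lost without liver 2, liver 3 or blood 3 (adjusted p 0.0720 to 0.0831). Neither Zfp595 nor Zfp748 was called without liver 3 and blood 1. Both groups were separate for all 4 genes. In the same cluster Zfp429 had a mean of 3.54 CPM in liver and 2.07 CPM in blood and was not called. Zfp953, Zfp595 and Zfp87 share exons with read-through or overlapping gene models on the same strand, so their counts are uncertain.

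The largest cluster, at chr17:21008903-22867134, held 11 genes with a KRAB match, of which 1 (Zfp945) was higher and 1 (Zfp943) lower. Both calls depended on single libraries, as given above for Zfp945, and Zfp943 was not called once any of liver 1, liver 3, blood 2 and blood 3 was left out, at adjusted p 0.0595 to 0.109, or with liver 3 and blood 1 left out together. The cluster at chr7:127233061-127885996 held 9 genes, with Zfp768, Zfp747, Zfp688 and Zfp646 lower and Zfp629 higher. Of these, Zfp688 was not called once any of liver 1, liver 3, blood 2 and blood 3 was left out, at adjusted p 0.0603 to 0.0859, and Zfp646 likewise for liver 1, liver 2 and blood 3, at adjusted p 0.0526 to 0.0556. Zfp747, Zfp688 and Zfp629 were lost without liver 3 and blood 1 together. On chromosome 18 the neighbours Zfp397, Zfp35 and Zfp24 were all 3 lower, with 19.2 ± 4.26, 7.25 ± 1.17 and 13.3 ± 4.27 CPM in liver (SD, n = 3), against 36.1 ± 7.24, 14 ± 0.769 and 33.4 ± 7.31 CPM in blood. The calls of Zfp397 and Zfp35 depended on single libraries. Zfp397 was lost without liver 1 or blood 3 (adjusted p 0.0729 to 0.0753), and for Zfp35 the adjusted p was 0.0564 to 0.0890 when liver 1, liver 2, blood 1 or blood 3 was left out.

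**Figure D5:**
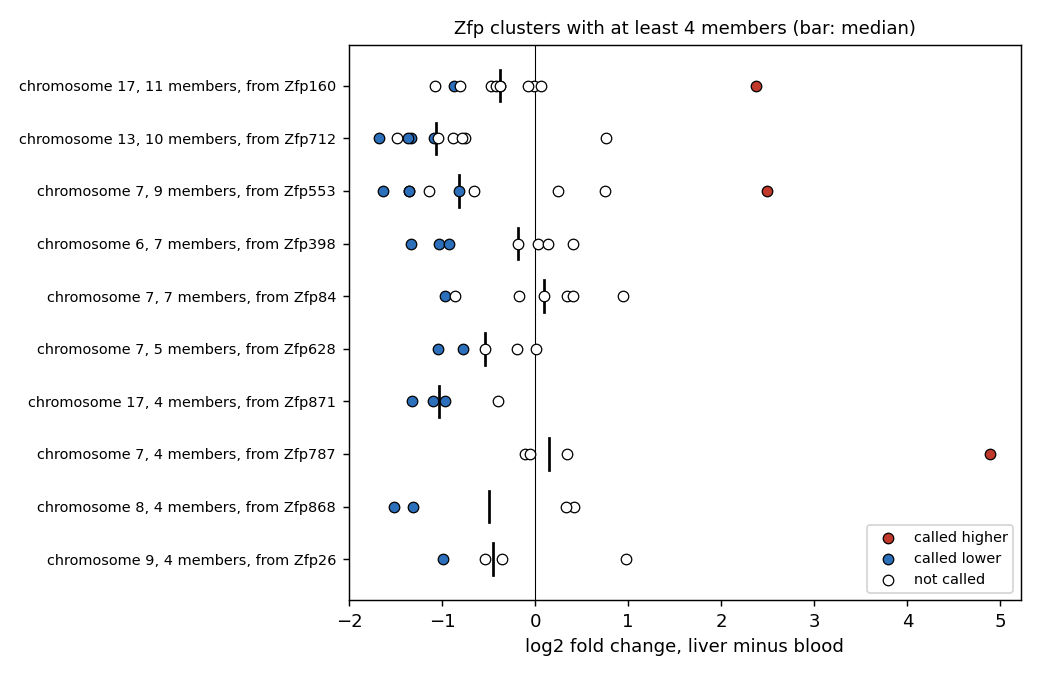
Points are genes, placed by their log2 fold change (liver minus blood) and coloured by call, for the 10 clusters with at least 4 members, each named by its chromosome and first gene, with a bar at the cluster's median. The chromosome 13 cluster has a median of -1.07 and 4 genes called lower, while the chromosome 7 and 17 clusters that hold Zfp667, Zfp629 and Zfp945 each have 1 gene called higher.

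Genes of the proteins through which KRAB factors act were called about as often as genes in general. Of 37 genes of this machinery found, 36 were tested, of which 7 (19.4%) were higher and 6 (16.7%) lower in liver, beside 17.4% and 14.2% of all tested genes, with a median of 0.06, beside 0.04. The scaffold Trim28 had 38.1, 35.3 and 42.8 CPM in liver and 33.0, 30.2 and 36.1 CPM in blood (0.23, SE 0.19, adjusted p = 0.405, edgeR), and the methyltransferase Setdb1 had 27.3, 30.2 and 39.0 CPM in liver and 44.2, 39.7 and 49.6 CPM in blood (-0.47, SE 0.21, adjusted p = 0.121). Neither was called, and the groups overlapped for Trim28 only. The 4 largest changes among called genes were rises. They were Chd3, a remodeller of the NuRD complex (52.4 ± 12.4 CPM in liver and 16.7 ± 7.69 CPM in blood, log2 fold change 1.65, SE 0.37), the maintenance DNA methyltransferase Dnmt1 (31.5 ± 16.2 CPM in liver, 10.2 ± 2.65 CPM in blood, log2 fold change 1.63, SE 0.38), the remodeller Smarcad1 (10.1 ± 2.63 CPM in liver, 3.34 ± 0.484 CPM in blood, log2 fold change 1.6, SE 0.34) and Morc2a, which works with the silencing complex HUSH (37.0 ± 1.42 CPM in liver, 13.1 ± 2.71 CPM in blood, log2 fold change 1.5, SE 0.24). All 4 were kept without any 1 library, while Chd3 and Smarcad1 were lost without liver 3 and blood 1.

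Also higher were Hdac2, Rbbp7 and Fam208b, and lower were Daxx, the heterochromatin protein gene Cbx3, Trim33, Gatad2b, Mta2 and Morc3, the falls being between -0.75 and -0.52. Within the NuRD complex, Chd3, Hdac2 and Rbbp7 were thus higher and Gatad2b and Mta2 lower, with Chd4, Hdac1, Rbbp4, Gatad2a, Mta1 and Mbd3 not called. The count of 13 machinery calls fell to 6 without liver 1, 8 without blood 2 and 6 without liver 3 and blood 1. Of the lower calls, each was lost without liver 1.

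Relatives named for a BTB or SCAN domain, and in Zkscan genes also for a KRAB box, were counted under the same rule. Of 50 Zbtb, Zkscan and Zscan genes that passed it, 10 (20%) were lower and 6 (12%) higher, beside 14.2% and 17.4% of all tested genes, with a median of -0.24, and 10 in all were called without liver 1. Zbtb10 had 10.3, 8.61 and 16 CPM in liver, against 1.29, 1.40 and 0.604 CPM in blood (3.40, SE 0.45, adjusted p = 0.000938, edgeR). Zbtb39 had 26.8, 46.0 and 32.7 CPM in liver, against 173, 153 and 155 CPM in blood (-2.19, SE 0.23, adjusted p = 0.000353). In both genes the groups were far apart, and both calls were kept without any 1 library. Zscan12 (2.08, SE 0.68) and Zbtb25 (1.76, SE 0.54) were the next largest changes, from 70 counts in liver and 14 in blood for Zscan12 and from 340 counts in liver and 89 in blood for Zbtb25. Zscan12 was lost without each library in turn (adjusted p 0.0729 to 0.143), by limma-voom, with no filter on low counts and without liver 3 and blood 1, and the adjusted p of Zbtb25 was 0.0836 to 0.102 when blood 1, blood 2, liver 1 or liver 3 was left out.

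The count rule itself set part of the picture at low levels. Of the 203 genes, 153 had at least 20 counts in every library. A total of 9 passed only through the 3 liver libraries (Zfp90, Zfp316, Zfp366, Zfp438, Zfp593, Zfp651, Zfp667, Zfp770 and Zfp945), of which 7 were called higher, and 3 only through the 3 blood libraries (Zfp60, Zfp773 and Zfp825), of which 1 was called lower. Such genes needed higher counts in the group that passed, by however little, so their direction was partly fixed. Zfp438, Zfp770, Zfp60 and Zfp773 passed in this way and were not called. Just inside the rule lay Zfp235, Zfp420 and Zfp593, with 20 counts in the library that decided it, and just outside lay Zfp81, Zfp189 and Zfp446, with 19. Below the rule were 170 symbols, 22 of them with no count, of which 25 were tested, with Zfp27 higher (64 counts in liver and 13 in blood) and Zfp952 lower (33 counts in liver and 120 in blood).

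Reads of zinc finger genes can be shared among near-identical copies or overlapping genes. Of the 203 genes, 57 had an expected count that was not whole (by more than 0.005) in some library, as happens where RSEM divides reads among genes, and 73 shared exon bases with another annotated gene, 58 of them on the other strand. Of the 114 genes with neither, 29 (25.4%) were lower and 14 (12.3%) higher. Not every overlap of a gene named above is given with it.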

How the data were processed

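RNA was measured in 6 libraries of Ly6G-selected cells, 3 from liver and 3 from blood. The deposited values are expected counts, which the authors made with STAR and RSEM on GRCm38. This is per the submitters' processing notes, where FastQC 0.11.5 and limma stand too. Not given in the sources used here are the versions of STAR and RSEM, filters and the strand setting of the counting. Per the labels' protocols the libraries were stranded, low-input and total-RNA. Without the strand setting, reads of a gene and of an antisense partner cannot be told apart.

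Expected counts were rounded to whole numbers. Low genes were removed by filterByExpr (a minimum count of 10 and a minimum total of 15), and TMM gave the library scaling. The 13458 genes left were tested in edgeR 4.0.16 under R 4.3.3 with its quasi-likelihood F test (robust), liver minus blood, group as the sole term. Genes with a Benjamini-Hochberg adjusted p under 0.05, over all tested genes, count as called. CPM is the depth-scaled count on TMM-scaled library sizes. At these depths 3 counts are 0.181 to 0.263 CPM, a floor that covers counting error only. DESeq2 1.42.0, limma-voom (limma 3.58.1), other scalings, other filters, other count rules, a replicate block and leaving out libraries were tried.

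The members, gene lists, markers and alternatives were chosen with earlier results of these data known, so no list has a p of its own. Genes are named by a rule: the 10 largest rises and 10 largest falls among called genes with separate groups, the 8 most abundant, a set fixed by known roles, genes at the edge of the count rule, and up to 4 examples of the machinery and of the relatives. Zfp57 and Zfp532 of that set did not pass the count rule. The genes named in clusters and under shared motifs were chosen after their values were seen.

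All 203 genes matched GENCODE M21 (GRCm38), which gave coordinates (counted from 1), exon overlaps and coding sequences. Fingers were counted by pattern (2 to 5 residues between the cysteines, 12 in the loop and 3 to 5 between the histidines). Each translated coding sequence was searched, in place of the protein table planned, and the highest count per gene was kept. KRAB and SCAN matches are a gene's best profile scores where these exceed 20 bits and the scores of all Zbtb proteins. They miss some divergent boxes, as in Zfp746, and no Zkscan gene that passed the count rule had a KRAB match. Promoter windows are from RefSeq (GRCm38.p6).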

Additional observations from a re-analysis of the deposited data

How the results depend on the processing

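Counts of calls depended on which libraries were used. No called gene named here changed its sign under any alternative run. Each of the 3 scalings moved the median over all genes by less than 0.02 on the log2 scale, and the zinc finger counts were 27 higher and 57 lower by DESeq2 and 21 and 54 by limma-voom. Leaving out 1 library gave 13 to 15 higher and 30 to 45 lower zinc finger genes, medians of -0.39 to -0.29, 6 to 13 machinery calls, 10 to 15 calls among the Zbtb, Zkscan and Zscan genes, and 1732 to 1993 higher and 1323 to 1626 lower of all genes. Without liver 3 and blood 1 there were 11 higher and 35 lower zinc finger genes, with a median of -0.49, 6 machinery calls and 1195 lower of all genes. These fits have fewer samples. With a rule of at least 10 counts in at least 3 libraries there were 230 genes with a median of -0.21, and with at least 50 counts 156 genes with a median of -0.46.

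Whether equal replicate numbers mark the same mouse was not settled. Deviations of same-numbered libraries correlated at 0.054, 0.156 and 0.023, and those of other pairs at -0.175 to 0.12. With 3 libraries per group these values cannot decide it. Only liver 1 and liver 2 correlated best with their own number. With a replicate block, 21 zinc finger genes were higher and 57 lower, and 2322 and 2312 of all genes. Zfp106 (adjusted p = 0.0242), Zfp608 (0.0174) and Zfp281 (0.0489) were called only under the block, and Zfp945 and Zscan12 were not called under it. KRAB genes had 4 higher in place of 7. The counts of KRAB, clustered and abundant genes under these alternatives were added after seeing the data.

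At these depths a few counts decide the size of a rise from near 0 in blood.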
